A study of Homo sapiens with 4 samples.

Results

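The probes described here measure transcripts that RefSeq annotates as noncoding, which carry accessions starting with NR_. Of the 58201 gene probes on each array, 8181 carried such an accession. All of these were taken except the 13 that map to *MEG3* or *MEG8*, which left 8168 probes. They covered 6022 accessions. A reference table of gene names paired 8087 of the probes with 5506 genes and held no entry for the other 81. By name and annotated type, the genes included 1612 long intergenic RNAs with a LINC symbol, 1298 antisense RNAs, 664 transcribed pseudogenes, 285 small nucleolar RNAs (snoRNAs), 279 divergent transcripts and 141 genes that also make a protein.

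The RNA came from HML58-3, a derivative of the human colon cancer line HCT116 that carries a luciferase reporter behind a promoter silenced by methylation, so that loss of methylation can be read as light. The study asked how 2 prodrugs of decitabine (DAC), an inhibitor of DNA methylation, compare with DAC itself in the genes they switch on. Cells received mock treatment, DAC, OR-2003 or OR-2100 at 1 µM from day 1, the drugs having been dissolved in DMSO, and were harvested for RNA on day 5. Each of the 4 conditions was measured once, on 1 array, and all 4 arrays lay on 1 slide. Whether the line is a single clone, and what the mock dish received, is not given in the sources used here.

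Noncoding RNAs act without being translated: long noncoding RNAs can bind chromatin, proteins or other RNAs, snoRNAs guide chemical modification of ribosomal and other RNAs, and host genes carry snoRNAs or microRNAs in their introns or exons. Methylation of CpG dinucleotides at a promoter is associated with a silent gene, and DAC, once built into DNA, traps the maintenance methyltransferase so that methylation is lost as cells divide. Imprinted noncoding RNAs, which are expressed from 1 parental copy, are textbook examples of genes whose activity follows methylation of a nearby control region.

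Expression arrays do not measure methylation, and the promoter sequences of 3 noncoding genes far higher with the drugs are printed as examples only. They were taken from a RefSeq table on GRCh38.p14 and run from 250 bases before to 50 bases after the annotated start, 5′ to 3′ on the minus strand that each gene uses, with every CpG in capitals. LOC284412 lies at chr19:37268961-37269260, H19 at chr11:2001217-2001516 and BOK-AS1 at chr2:241559094-241559393.

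LOC284412: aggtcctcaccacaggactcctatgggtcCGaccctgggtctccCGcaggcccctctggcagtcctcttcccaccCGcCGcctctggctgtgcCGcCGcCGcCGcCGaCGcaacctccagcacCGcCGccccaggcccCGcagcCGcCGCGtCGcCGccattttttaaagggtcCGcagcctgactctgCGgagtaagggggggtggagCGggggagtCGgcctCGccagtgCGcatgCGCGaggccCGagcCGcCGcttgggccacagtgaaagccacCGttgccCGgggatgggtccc
H19: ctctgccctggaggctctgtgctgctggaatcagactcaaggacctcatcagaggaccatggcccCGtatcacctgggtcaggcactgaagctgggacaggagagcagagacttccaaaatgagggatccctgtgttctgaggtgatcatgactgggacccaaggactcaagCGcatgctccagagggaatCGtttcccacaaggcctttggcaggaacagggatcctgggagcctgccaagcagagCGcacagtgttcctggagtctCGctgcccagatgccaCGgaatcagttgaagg
BOK-AS1: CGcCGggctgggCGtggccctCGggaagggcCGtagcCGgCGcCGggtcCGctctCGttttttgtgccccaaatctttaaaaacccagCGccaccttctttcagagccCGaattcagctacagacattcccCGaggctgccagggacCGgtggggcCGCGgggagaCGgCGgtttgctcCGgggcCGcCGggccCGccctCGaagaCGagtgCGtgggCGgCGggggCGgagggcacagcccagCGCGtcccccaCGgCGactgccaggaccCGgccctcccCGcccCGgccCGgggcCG

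The *LOC284412* promoter holds 31 CpGs in its 300 bases, that of *BOK-AS1* 37 and that of *H19* 6. For scale, the median over the 27305 promoters of the table was 14 CpGs, and 41.2% held 20 or more. Only 81 of the 191 induced noncoding genes (42.4%) have a promoter in that table, so a comparison of CpG content between induced and other genes is void and none is given.

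Levels are log2 intensities set so that the 75th percentile of each array's gene probes is 0. A probe was called induced by a drug when its level with the drug was -1 or more and at least 2-fold above mock, and reduced when its mock level was -1 or more and its level with the drug at least 2-fold below. With 1 array per condition no replicate error can be had and nothing was tested, so every difference below compares 1 RNA sample with another. The median SD between repeated spots of a probe, 0.059 to 0.067 on the log2 scale, covers only the array surface. In RNA from a whole dish, more cells with a transcript and more transcript per cell cannot be told apart. All 3 drug arrays were set against the same mock array, so an error on it would enter every comparison.

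Of 10 markers of colon epithelium, 7 were at a level of -1 or more on each array. Of 9 markers of blood, endothelium, fibroblasts and liver, 1 reached -1 on mock (*COL1A1*) and 3 with each drug (*COL1A1*, *CD14* and *VWF*), and their summed level, not on a log scale, was 2.99 on mock and 6.99 to 7.47 with the drugs. *COL3A1*, *CEACAM5* and *LGR5* were not well above background on any array. The part of these markers in the results was not tested. The slope of the spike-in controls was 0.899 on mock against 0.913 to 0.955 with the drugs, and its part was not tested either.

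Most noncoding transcripts were dim. On mock, 3591 of the 8168 probes (44.0%) were well above background, against 74.2% of the 25834 probes for coding transcripts (NM_ accessions), and with the drugs the share was 45.4% to 47.4%. The median level of the noncoding probes lay between -4.75 and -4.33, near the lowest level at which an array called a probe well above background (-4.55 to -4.29). On all 4 arrays 2958 noncoding probes were well above background, and 3781 were so on none. No noncoding probe was saturated.

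DAC induced 260 noncoding probes (3.18%; 3.44% of all gene probes were induced), OR-2003 275 (3.37%; 3.53% of all) and OR-2100 279 (3.42%; 3.50% of all). All 3 drugs induced 244 (2.99%; 3.13% of all gene probes). DAC reduced 231 (2.83%; 4.03% of all), OR-2003 227 (2.78%; 4.07% of all), OR-2100 237 (2.90%; 4.49% of all) and all 3 together 183 (2.24%; 3.41% of all). With 1 probe per gene, 191 noncoding genes were induced by all 3 drugs and 131 reduced. Each of these shares lay near or under that of all gene probes. Of the noncoding probes that all 3 drugs induced or reduced, 57.1% were induced. That split was 69.3% with another background correction (normexp, offset 50), 71.6% when the 75th percentile was taken over probes well above background, and 48.5% when array medians were set to 0.

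**Figure D1:**
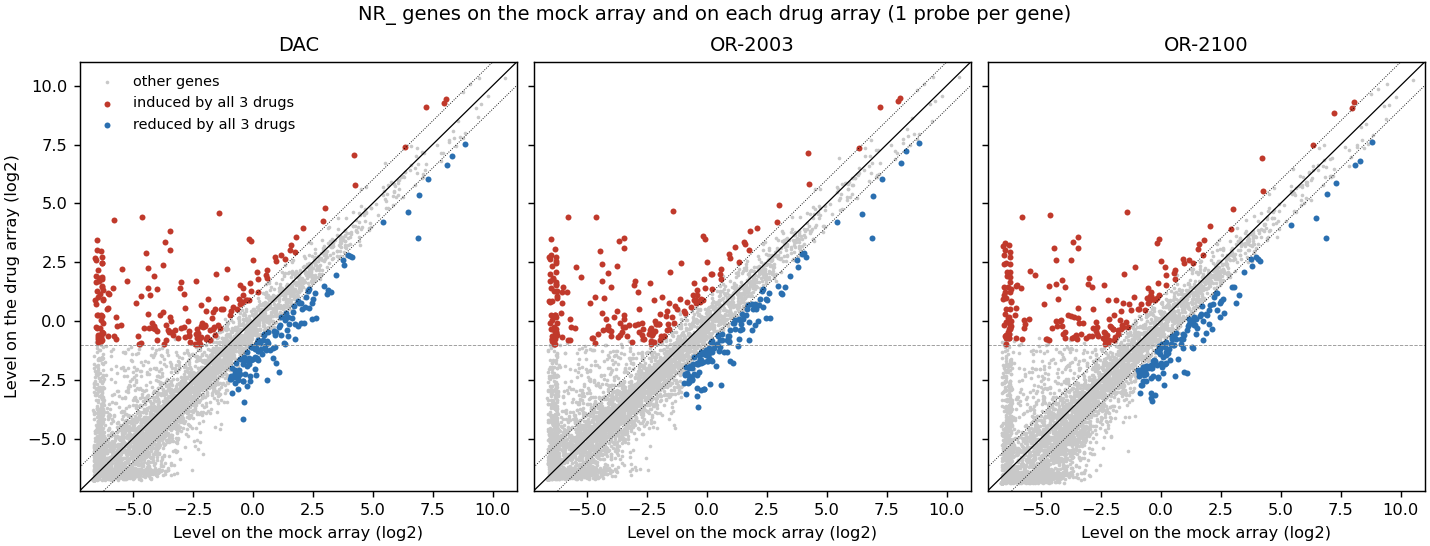
Level on mock (x axis) against the level with DAC, OR-2003 or OR-2100 (y axis, both log2 relative to the array's 75th percentile), with 1 point per noncoding gene. Red points were induced by all 3 drugs and blue points reduced, the solid line marks equal levels, the dotted lines a 2-fold difference and the dashed line a drug level of -1. The red points lie mostly at mock levels under -1, while the blue points start above it.

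Noncoding and coding probes were then set side by side at like signal, by weighting the coding probes to the spread of mean levels of the noncoding ones over 20 groups. Signal depends on each probe's own sequence, so this is a description and not a comparison of RNA amounts. At like signal 2.52% of coding probes were induced by all 3 drugs against 2.99% of noncoding ones, a difference of 0.465 percentage points (0.107 to 0.858 by counting error alone). The reduced shares were 2.57% and 2.24%, a difference of -0.331 points (-0.641 to 0.014). The sign of the first difference rests on how like signal is set. It was 1.08 points when the coding probes were weighted by their level with the drugs, -3.1 points when weighted by mock level, and -0.196 points with 1 probe per gene. Without the SNORD113, SNORD114, SNAR and *MEG9* probes described further on it was 0.161 points (-0.178 to 0.535). The order of noncoding and coding probes by induced share was therefore not fixed on these arrays. Like-signal shares of families, lists and classes below were matched by mean level alone, and no match by mock level was made for them. The median log2 difference of noncoding probes was -0.128 with DAC, -0.0988 with OR-2003 and -0.256 with OR-2100, beside -0.101, -0.079 and -0.237 for coding probes of like signal.

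By mean level over the arrays, the noncoding induced share was highest between -1 and 1, at 14.1% against 12.3% of coding probes. Between 1 and 3 it was 9.92% (35 of 353 probes; exact 95% binomial interval 7.0% to 13.5%) against 5.86% (5.21% to 6.56%). In that same band the reduced share was 5.38% of noncoding probes (19 probes; 3.27% to 8.28%) against 9.38% (8.57% to 10.2%). These intervals cover counting error only, and probes of one gene are not independent. At the lowest mock levels measured here, a probe induced by all 3 drugs cannot have a mean level under -3, so the 5460 noncoding probes there could not be called induced.

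**Figure D2:**
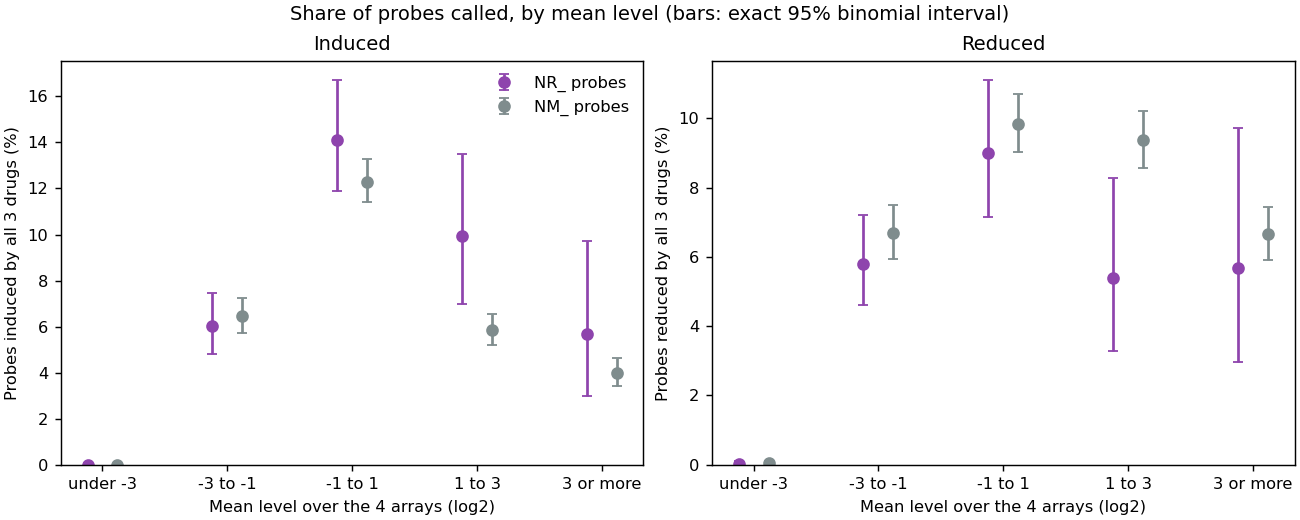
Share of probes induced or reduced by all 3 drugs (y axis, percent) by mean level over the 4 arrays (x axis, log2 relative to the 75th percentile), for noncoding (NR_) and coding (NM_) probes, with exact 95% binomial intervals. In the band from 1 to 3 the noncoding share is 9.92% induced and 5.38% reduced, and the coding share 5.86% and 9.38%.

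Of the 244 induced noncoding probes, 191 (78.3%) were under -1 on mock, as were 82.8% of all noncoding probes, and 41.4% were not well above background there, against 4577 of all 8168. Among induced coding probes the shares were 62.6% and 26.2%, and among all coding probes 46.2% and 25.8%. Of the 4577 noncoding probes not well above background on mock, 478 (10.4%) were so on all 3 drug arrays, of which 101 were induced. The same step was seen for 22.8% of coding probes. In the other direction, 248 of 3591 noncoding probes (6.91%) and 1.79% of coding probes were well above background on mock and on no drug array. Different probes of a gene did not always move together: of 67 induced noncoding genes with other measured probes, these all moved at least 2-fold the same way in 49, and of 47 reduced genes in 28.

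Among genes that every array measured well above background, the 10 leading by mean difference gained between 4.10 and 7.09 on the log2 scale. *H19*, a maternally expressed imprinted RNA, stood first. Its probe read -3.46 on mock, 3.81 with DAC, 3.51 with OR-2003 and 3.56 with OR-2100, which is 155-, 126- and 131-fold higher. The mock array was far below the 3 drug arrays, which lay close together. A second *H19* probe read -3.35 on mock and 2.79, 2.67 and 2.68 with the drugs. *BOK-AS1*, antisense to the cell-death gene *BOK*, read -3.64 on mock and 3.35, 3.39 and 3.36 with the drugs (127-, 131- and 128-fold). It had 1 probe, and no drug array came near the mock value. *LINC00624* read -3.44 on mock and 3.04, 3.10 and 3.11 with the drugs, and its second probe gave -4.62 on mock and 0.87, 0.80 and 0.88. *LINC00958* started higher, at -1.41, and reached 4.60, 4.66 and 4.65, the highest drug levels of these 10.

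The other members of that set lay at -2.85 or below on mock and above 0 with every drug. *SNORD114-23*, a snoRNA of the imprinted cluster on chromosome 14, read -3.73 on mock and 2.38, 2.33 and 2.60 with the drugs. *LINC01980* read -3.98 and then 1.37, 1.46 and 1.46. *CPAMD8* is a protein-coding gene of the complement-related family. A probe annotated to its noncoding transcript read -2.99 on mock and 1.65, 1.71 and 1.82 with the drugs. Whether that probe also picked up the coding transcript was not tested. The order of the 3 drugs was not the same from gene to gene in this set. *LOC105379807*, *RIMKLB* and *LINC03028* completed it. With normexp the 10 mean differences shrank to between 1.68 and 5.08, since that method raises dim signals.

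In a further 346 genes the brightest probe was not well above background on mock and well above it with every drug. The 10 of these with the highest mean level with the drugs are described here. Only a lower bound on the fold of that probe can be given. The bound sets the drug level against the lowest level that the mock array called well above background, -4.29. The pseudogene *LOC100129291*, on the X chromosome, read -4.62 on mock and 4.42, 4.44 and 4.49 with the drugs in the same order, at least 418-, 423- and 437-fold higher. Its second probe was well above background on all 4 arrays, at -3.82 on mock and -0.04, 0.07 and 0.13 with the drugs, a mean difference of 3.87, so the size of the gain depends on the probe. *LOC284412*, whose CpG-rich promoter is printed above, read -5.77 on mock and 4.30, 4.42 and 4.41 with the drugs, at least 385-, 418- and 415-fold higher. A second *LOC284412* probe gave a smaller gain, from -5.81 on mock to -1.17, -1.16 and -0.94, and was at -1 or more with OR-2100 only. *LINC01610*, a long intergenic RNA of chromosome 6, read -6.47 on mock and 3.43, 3.48 and 3.33 with the drugs, at least 210-, 217- and 196-fold higher, and its second probe gave nearly the same values (-6.33 on mock and 3.16, 3.08 and 3.08).

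*MEG9*, which lies in the same imprinted region of chromosome 14 as the SNORD113 and SNORD114 snoRNAs, read -6.56 on mock, 2.70 with DAC, 2.74 with OR-2003 and 3.21 with OR-2100. The second *MEG9* probe read -6.50 on mock and -0.92, -0.97 and -0.34 with the drugs, a far smaller gain. On both probes the OR-2100 array was the highest. *PHKA2-AS1*, antisense to a subunit gene of phosphorylase kinase, read -4.45 on mock and 2.88, 2.99 and 3.12. Another of its probes was well above background on all arrays, at -3.78 on mock and 1.72, 1.78 and 2.12, a mean difference of 5.66. The pseudogene *GRM5P1* read -6.47 on mock and 3.01, 2.82 and 3.02. The remaining 4 were *SNORD114-21*, *SNORD114-15*, *SNORD114-26* and *SNORD114-9*, each at least 107-fold higher with each drug. With normexp the mean log2 differences of the set fell from between 7.45 and 10.15 to between 3.97 and 5.85.

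**Figure D3:**
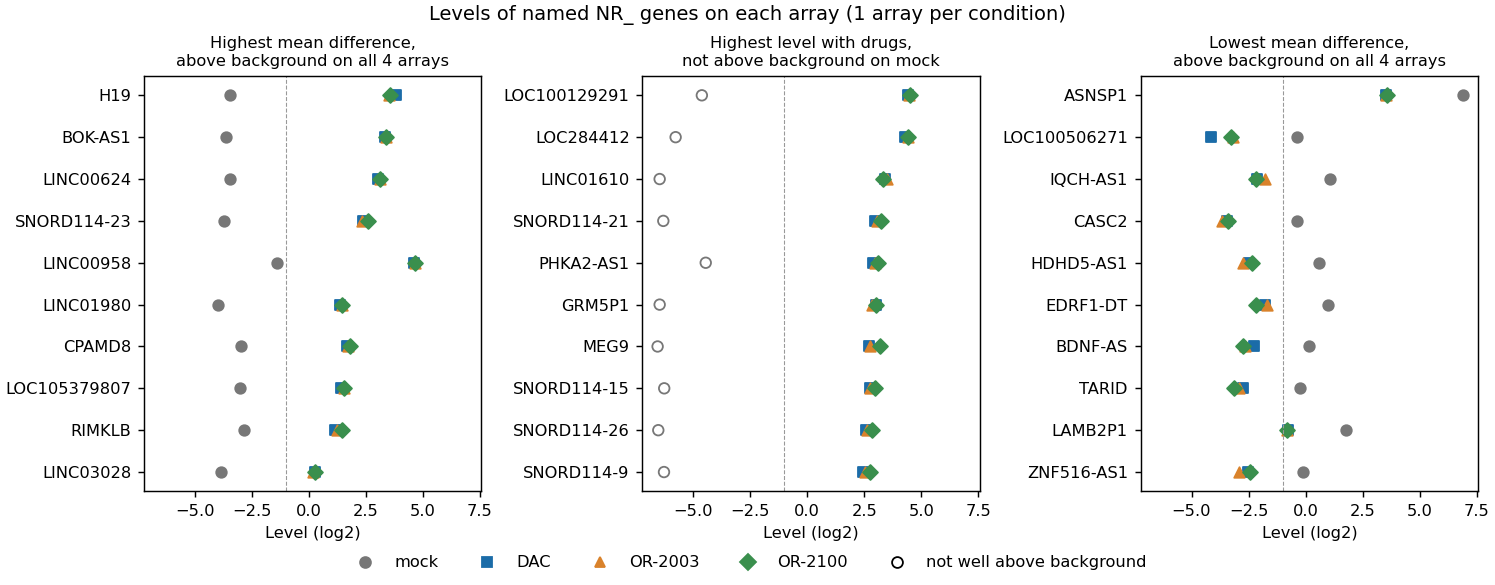
Level of each named noncoding gene on the 4 arrays (x axis, log2 relative to the 75th percentile), in 3 panels: highest mean difference, not well above background on mock, and lowest mean difference. Open symbols were not well above background and the dashed line marks -1. In the first and second panels every drug symbol lies far right of mock, and in the third every drug symbol lies left of it.

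The strongest reductions were smaller than the strongest gains. The lowest mean difference among genes with a mock level of -1 or more belonged to *ASNSP1*, a pseudogene of the asparagine synthetase gene. It read 6.89 on mock, 3.54 with DAC, 3.54 with OR-2003 and 3.55 with OR-2100, 10.2-fold lower with each drug. Its second probe read 3.94 on mock and 0.54, 0.49 and 0.40 with the drugs. The coding gene *ASNS* was itself lower, with a mean difference of -3.26, and a pseudogene shares sequence with its parent, so the *ASNSP1* values are uncertain. *IQCH-AS1* read 1.09 on mock and -2.14, -1.79 and -2.19 with the drugs (9.38-, 7.37- and 9.77-fold lower). *CASC2*, a long RNA first studied as a tumour suppressor candidate, read -0.37 on mock and -3.44, -3.65 and -3.41 with the drugs. For both probes the 3 drug arrays lay well below mock. Other probes of these genes were dimmer and moved less, by -0.97 and -0.16 for *IQCH-AS1* and by -1.40, -2.18 and -0.17 for *CASC2*.

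*BDNF-AS*, antisense to the neurotrophin gene *BDNF*, read 0.15 on mock and -2.28, -2.67 and -2.73 with the drugs. *TARID*, an antisense RNA studied for its part in demethylating the *TCF21* promoter, read -0.25 and then -2.75, -2.93 and -3.15. *EDRF1-DT*, a divergent transcript, read 0.97 on mock and -1.79, -1.69 and -2.16. *HDHD5-AS1*, *LAMB2P1*, *ZNF516-AS1* and *LOC100506271* completed the 10, which lay between -3.35 and -2.51 in mean difference. With normexp that range became -3.32 to -1.27, with *ASNSP1* nearly unchanged at -3.32 and *CASC2* at -1.48. The 5 brightest noncoding genes moved less: the ribosomal *RNA28SN1* read 10.51 on mock and 10.31, 10.36 and 10.24 with the drugs, and *FAM74A4* 9.79 and then 9.56, 9.57 and 9.50. The sign of both turned with quantile normalization, and that of *RNA28SN1* also when the 75th percentile was taken over probes well above background. The others of the 5 were *SNAR-A3*, *SNAR-B2* and *SNAR-D*, higher on average by 0.84, 0.95 and 0.98. The labelling kit primes from poly(A), and which RNA the *RNA28SN1* and SNAR probes picked up was not tested.

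Some noncoding genes form families of like copies, among them the snoRNAs of the imprinted cluster on chromosome 14. Of the 29 SNORD114 genes, 27 went from not well above background on mock to well above it on all 3 drug arrays, and 19 were induced by all 3. Their median level was -6.34 on mock, -0.30 with DAC, -0.26 with OR-2003 and 0.12 with OR-2100. All 8 SNORD113 genes made the same step and 3 were induced. Of the 37 genes of both families 59.5% were induced, against 6.65% of coding probes of like signal. The copies are alike in sequence, so 1 transcript may light several probes and single values are uncertain. SnoRNAs are cut from the introns of a longer host transcript and lack a poly(A) tail, while the labelling kit primes from poly(A), and which RNA these probes picked up was not tested. The median mean difference over the 37 SNORD113 and SNORD114 genes was 5.80, and 1.39 with normexp.

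Of the SNORD115 and SNORD116 snoRNAs, which lie in the imprinted region of chromosome 15 tied to Prader-Willi syndrome, only *SNORD116-19* made that step. Of 20 such genes 0 were induced, as were 0.0% of coding probes of like signal, and 19 were well above background on none of the arrays. Probes this dim lay too low for the call, so neither share could be above 0 and they compare nothing. *SNORD116-19* read -4.97 on mock and -2.14, -2.18 and -2.80 with the drugs. The SNAR genes encode small RNAs that bind nuclear factor 90. All 8 were well above background on every array, with median differences of 1.18 with DAC, 1.21 with OR-2003 and 0.98 with OR-2100, and 4 were induced by all 3 drugs. *SNAR-G1* moved most, from 4.21 on mock to 7.04, 7.14 and 6.92. *SNAR-A3*, the brightest, went from 9.42 to 10.33, 10.37 and 10.09. These copies too are nearly alike in sequence.

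**Figure D4:**
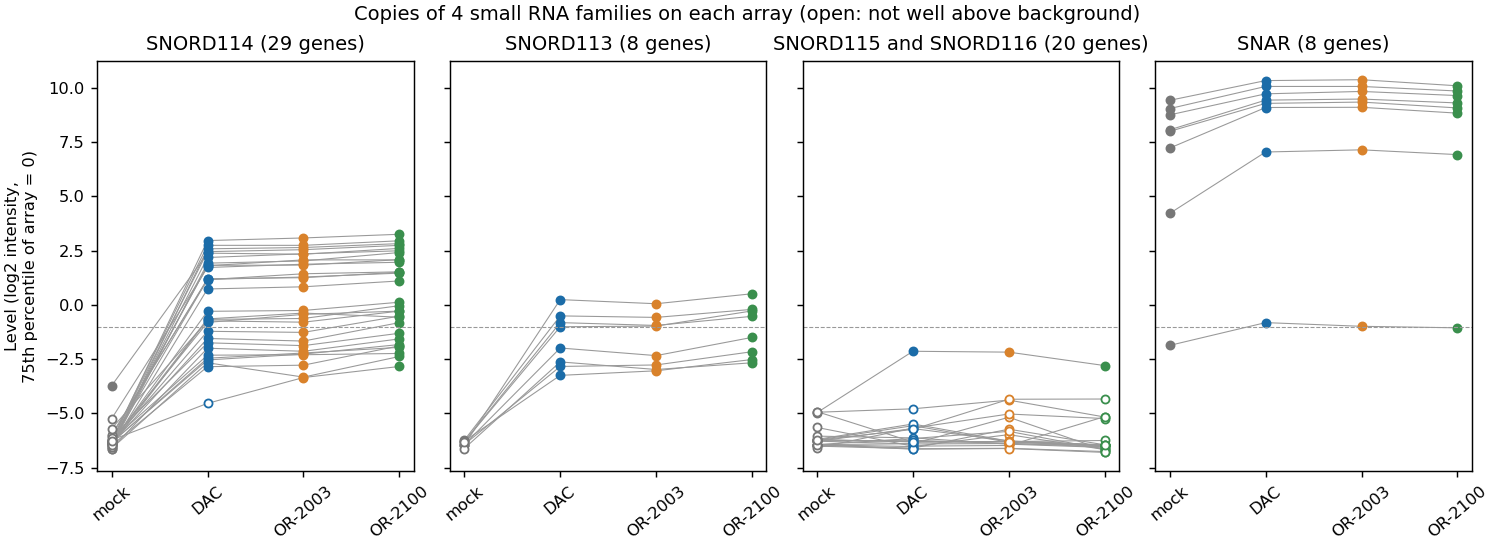
Level of each gene (y axis, log2 relative to the 75th percentile) on the mock, DAC, OR-2003 and OR-2100 arrays (x axis) for 29 SNORD114, 8 SNORD113, 20 SNORD115 and SNORD116 and 8 SNAR genes. Open symbols were not well above background. The SNORD114 median goes from -6.34 on mock to between -0.30 and 0.12, while most SNORD115 and SNORD116 symbols are open.

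These families set much of the picture by chromosome. On chromosome 14, 26 of 201 noncoding genes were induced by all 3 drugs (12.9%), beside 6.16% of coding genes there. Without SNORD113, SNORD114 and *MEG9* it was 3 of 163 noncoding genes (1.84%). On chromosome 19 the count was 16 of 152 (10.5%), and 13 of 146 (8.90%) without the SNAR genes there, beside 10.4% of coding genes of that chromosome. On the X chromosome 7 of 139 noncoding genes were induced (5.04%), beside 12.6% of coding ones. On chromosome 20 it was 0 of 167, beside 6.8% of coding genes. None of these chromosome shares was taken at like signal, and coding probes were brighter. Over the whole array 5.16% of coding probes were induced by all 3 drugs, 2.52% at like signal, and 2.99% of noncoding ones. Without the families, chosen after their values were seen, 163 of 5417 noncoding genes (3.01%) were induced.

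Of 15 long noncoding RNAs that many tissues express, 12 were well above background on all arrays, 4 were reduced by all 3 drugs and 1 was induced, with median differences of -0.90, -0.93 and -1.05. Coding probes of like signal were reduced in 5.5% and induced in 3.64% of cases. This list and those below were chosen with earlier results of these data known, so such gaps are a description only. *NEAT1*, the scaffold of nuclear paraspeckles, read 6.94 on mock and 5.34, 5.30 and 5.39 with the drugs. *GAS5*, a growth-arrest RNA that also hosts snoRNAs, read 8.83 and then 7.53, 7.56 and 7.60. *LINC-PINT*, a p53-responsive RNA, read 1.76 and then -0.10, -0.03 and -0.01. In each of these the 3 drug arrays lay together below mock. *MALAT1*, a nuclear speckle RNA, missed the 2-fold call at 7.09 on mock and 6.12, 6.21 and 6.15 with the drugs. *CYTOR* went the other way, from 2.92 to 4.24, 4.19 and 3.93.

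Of 30 snoRNA host genes, 26 were well above background on all arrays, 4 were reduced (*EPB41L4A-AS1*, *ZFAS1*, *SNHG8* and *GAS5*) and 1 was induced, *SNHG27*, which read -4.65 on mock and 1.05, 1.02 and 1.49 with the drugs. *ZFAS1* read 8.12 on mock and 6.65, 6.72 and 6.64. At like signal, 5.91% of coding probes were reduced and 4.42% induced, against 13.3% and 3.33% of the hosts. The median differences of the hosts were -0.59, -0.57 and -0.66. The medians of both lists kept their sign under each scaling tried. Of 62 microRNA host genes, 2 were induced (3.23%, against 3.13% at like signal) and 4 reduced (6.45%, against 3.45%). *MIR9-3HG* read -1.55 on mock and 0.53, 0.75 and 0.79 with the drugs, and *MIR4435-2HG* 4.28 and then 5.76, 5.81 and 5.52. *MIR200CHG*, host of microRNAs that guard the epithelial state, read 2.16 and then -0.08, -0.01 and -0.32. *MIR100HG*, *MIR31HG* and *MIR4713HG* were the other reduced hosts.

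Among the 8 microRNA genes with a probe of their own, 3 were well above background on all arrays and 0 were called. *MIR221* read -2.06 on mock and -3.08, -3.27 and -2.94 with the drugs, too low for a call. The probes of this array are drawn against the gene transcript and do not tell the mature microRNA, whose sequence in the RefSeq table is given here with the seed, bases 2 to 8, in capitals.

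hsa-miR-221-3p: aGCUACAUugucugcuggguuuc

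A list of 17 other imprinted noncoding genes left out *MEG9* and the SNORD113 and SNORD114 snoRNAs, described above. Of its members 6 were well above background on all arrays, and *H19* alone was induced (5.88%, against 2.23% at like signal). *KCNQ1OT1*, the antisense RNA that silences its imprinted neighbours, read -0.29 on mock and 0.44, 0.50 and 0.83 with the drugs, under the 2-fold call with DAC and OR-2003. *PWARSN* read -6.49 on mock and -2.30, -2.32 and -2.52, and *GNAS-AS1* -4.11 and then -1.42, -1.45 and -1.39. Both lay higher with each drug, yet under a level of -1. *IPW* went the other way, from -1.96 to -3.91, -3.89 and -3.21. The median difference of this list was 0.62 with DAC, 0.79 with OR-2003 and -0.21 with OR-2100. Coding probes of like signal gave -0.09, -0.07 and -0.21. Over the 6 members well above background on all arrays the medians were 0.26, 0.35 and 0.42. The median of the list's mean differences over the 3 drugs, 0.31, changed sign with normexp (-0.07). Movement both ways was also seen among RNAs of the HOX clusters, which hold the genes that pattern the body axis.

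Of 16 HOX-cluster RNAs 5 were induced (31.2%, against 6.88% of coding probes of like signal) and 2 reduced (12.5%, against 6.7%). Here too like signal was set by the mean level over all arrays, drug arrays included, and not by mock level. *HAGLROS* read -6.07 on mock and 0.50, 0.35 and 0.24 with the drugs. *HOXB-AS1* read -0.51 and then 1.52, 1.60 and 1.40. *HOXA-AS3*, *HOXC-AS3* and *HOXC13-AS* were the other induced members. *HOXA10-AS* read 4.14 on mock and 2.73, 2.72 and 2.57, and *HOXC-AS1* was reduced too. *HOTAIR*, which lies in the HOXC cluster and binds the polycomb complex, stayed low at -2.69 on mock and -3.14, -2.76 and -2.82 with the drugs.

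Of 30 long RNAs often studied in cancer, 5 were induced (16.7%, against 4.45% at like signal) and 2 reduced (6.67%, against 4.75%). *AFAP1-AS1*, named for its antisense position in *AFAP1*, read -6.32 on mock and -0.68, -0.66 and -0.73 with the drugs, while *AFAP1* itself differed by -0.48. *LUCAT1* read -2.83 and then -0.69, -0.45 and -0.30. *CASC15* read 1.17 and then 2.81, 3.14 and 2.59. *H19* and *CYTOR* were the others. *CCAT1*, a colon cancer associated transcript, read 0.73 on mock and -1.24, -1.31 and -1.59, and *CASC2* was reduced as above. *UCA1* read 5.97 on mock and 5.26, 5.27 and 5.03. Of 10 RNAs tied to p53, 2 were induced (*TP53TG1* and *PINCR*) and 2 reduced (*LINC-PINT* and *NEAT1*), where coding probes of like signal gave 5.6% induced and 6.4% reduced. *TP53TG1* read -6.50 on mock and -0.28, -0.34 and -0.62. *PINCR* read -2.87 and then -0.26, -0.10 and -0.65. Of 19 RNAs tied to interferon 10 were well above background on all arrays and 0 were called in either direction, where like-signal shares were 2.19% induced and 3.34% reduced.

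Over the wider classes, 27 of 285 snoRNA genes (9.47%) were induced, against 6.64% of coding probes of like signal, and 22 of the 27 belong to SNORD113 or SNORD114. Only 3 snoRNA genes were reduced (1.05%, against 6.62%). *SNORD43* and *SNORA65* were among the other 5: *SNORD43* read 2.08 on mock and 3.96, 3.95 and 4.02 with the drugs. Of the LINC genes 43 of 1612 were induced (2.67%, against 1.71% at like signal) and 16 reduced (0.993%, against 1.74%). *LINC01511* read -6.26 on mock and 2.45, 2.46 and 2.42 with the drugs, and *LINC00173* went the other way, from 2.64 to 0.15, 0.12 and 0.33. Of the transcribed pseudogenes 28 of 664 were induced (4.22%, against 4.12%) and 14 reduced (2.11%, against 4.34%). Of the antisense RNAs 33 of 1298 were induced (2.54%, against 3.07%) and 36 reduced (2.77%, against 3.03%). Among small structural RNAs *RPPH1*, the RNA of ribonuclease P, read 0.24 on mock and 1.80, 2.02 and 1.95, and *RNU6ATAC*, of the minor spliceosome, -0.83 and then 0.61, 0.82 and 0.71. *VTRNA2-1*, a vault RNA, went from -0.90 to -2.32, -2.23 and -2.33. Since the labelling kit primes from poly(A), which RNA the snoRNA and small structural probes picked up was not tested. The medians of the snoRNA and small structural lists, 0.12 and 0.07, changed sign when array medians were set to 0 and with normexp.

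**Figure D5:**
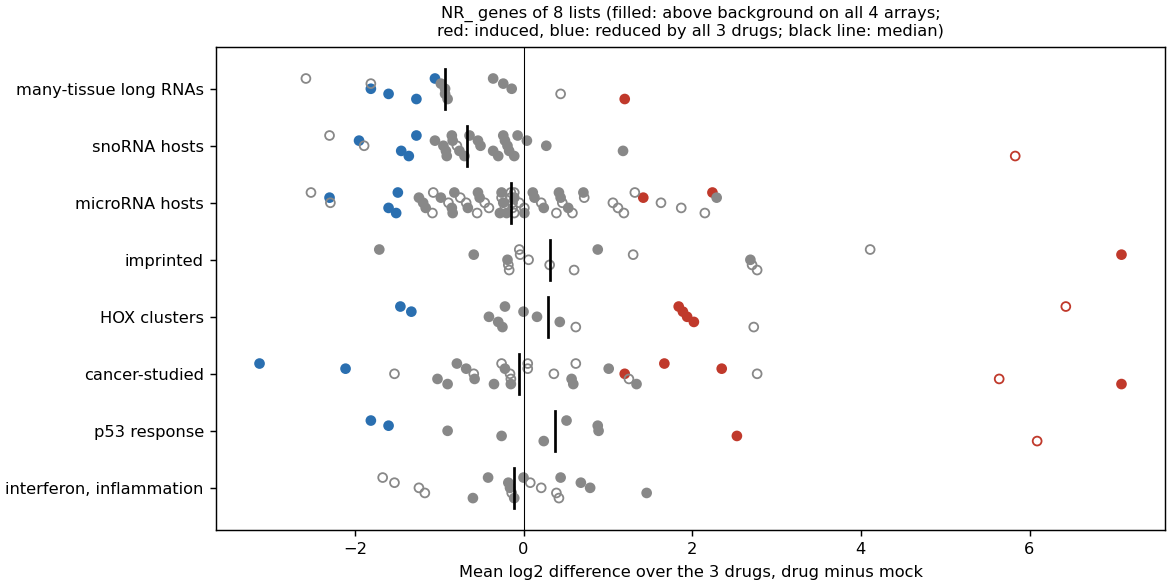
Mean log2 difference over the 3 drugs (x axis) of each gene in 8 lists of noncoding genes (y axis). Filled points were well above background on all 4 arrays, red marks were induced by all 3 drugs, blue marks reduced, and the black line is the median of the list. The lists of long RNAs expressed in many tissues and of snoRNA hosts have medians of -0.93 and -0.67, and the interferon list holds no coloured point.

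Antisense RNAs are transcribed from the strand opposite a named gene, so the gene on the other strand can be set beside each. Of 1256 such pairs, the antisense RNA was induced in 29, and in 6 of these the coding gene was induced too. The 6 are 20.7% of the induced antisense RNAs and 9.09% of the 66 induced coding partners. Where the antisense RNA was not induced, 4.89% of coding partners were. Over 434 pairs with both above background on all arrays, the mean differences correlated with r = 0.11 and rho = 0.094, across genes of the same arrays. Of the 35 reduced antisense RNAs 2 had a reduced partner (5.71%), beside 7.48% of all the coding partners. They included *SLC7A11-AS1* (-1.43), beside *SLC7A11*, the cystine transporter gene (-4.51).

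The following pairs were picked after their values were seen. *MAGEA4-AS1* read -4.35 on mock and 2.24, 2.41 and 2.58 with the drugs, beside *MAGEA4*, a cancer-testis antigen gene that was itself higher by 4.57 on average. *VIM-AS1* was higher by 1.13 and the mesenchymal filament gene *VIM* by 6.20. *PYCARD-AS1* was higher by 1.28 and the inflammasome adaptor gene *PYCARD*, not well above background on mock, by 5.68. Other antisense RNAs were induced with little difference in the partner: *PHKA2* differed by -0.30 and *BOK* by 0.05, beside the large gains of their antisense RNAs. In 2 pairs, with *CIRBP-AS1* and *MCF2L-AS1*, the antisense RNA was induced and the coding gene reduced. Of 278 divergent transcripts, which start beside a gene and run away from it, 10 were induced and 1 of these had an induced partner (10.0%). It was *LHX1-DT* (2.19), beside the homeobox gene *LHX1* (3.49). Where the divergent transcript was not induced, 5.6% of coding partners were. Of the 13 reduced divergent transcripts 1 had a reduced partner (7.69%), beside 6.83% of all the coding partners. A further 127 genes had probes annotated to both a noncoding and a coding transcript. Whether their noncoding probes also picked up the coding transcript was not tested. In none of the 3 genes with an induced noncoding probe was the coding probe induced. The coding probe of *RIMKLB* was higher by 2.45, yet stayed under -1. Of 5 reduced noncoding probes 2 had a reduced coding probe, in *SARS1* (-2.32 and -1.28) and *CIRBP* (-2.16 and -1.51). Of all coding probes on the array, 5.16% were induced and 5.81% reduced by all 3 drugs. *RNASEH1* gave opposite readings. Its noncoding probe read -0.40 on mock and -2.55, -2.28 and -3.06 with the drugs. Its coding probe read 0.80 on mock and 1.88, 1.87 and 1.70 with the drugs, under the 2-fold call with OR-2100. *IFT27* was opposite in the other direction, its noncoding probe induced (1.14) and its coding probe reduced by all 3 drugs (-1.24).

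Neighbouring genes were looked at in the same way, from the order of genes on the chromosome. Of 186 induced noncoding genes 55 (29.6%) had an induced coding neighbour, against 625 of 5129 others (12.2%). Much of that gap went with the families, whose members share neighbours on chromosome 14: without SNORD113, SNORD114, SNAR and *MEG9* the share was 32 of 159 (20.1%) against 11.9%, and with a mean level of -1 or more as well, 15 of 106 (14.2%) against 11.1%. Of 124 reduced noncoding genes 19 (15.3%) had a reduced neighbour, against 13.6% of the others, and with a mean level of -1 or more 14.7% against 16.3%.

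The drugs were set against each other in all 3 pairs at the same dose and day, over noncoding probes well above background on both arrays. Between DAC and OR-2003, 9 of 3563 probes (0.253%; exact 95% interval 0.116% to 0.479%) differed at least 2-fold. Between DAC and OR-2100 it was 13 of 3503 (0.371%; 0.198% to 0.634%), and between OR-2003 and OR-2100 27 of 3529 (0.765%; 0.505% to 1.11%), of which 24 were lower with OR-2100. Of coding probes 0.0648%, 0.13% and 0.195% differed as much, and these were brighter. No noncoding probe that differed 2-fold was at a level of -1 or more on both arrays. The absolute difference had a median of 0.13, 0.17 and 0.17 on the log2 scale in the 3 pairs, and 95% of probes differed by less than 0.52, 0.61 and 0.64. No interval for a difference between compounds can be had from 1 array each, and the sizes above do not show that they act alike. The 3 drug values of a probe had a median SD of 0.13 over the 2958 probes that all arrays measured above background, 0.1 for induced and 0.12 for reduced ones, beside median absolute differences from mock of 0.487, 3.57 and 1.52. Induced and reduced probes had to differ at least 2-fold from mock with every drug, so the call partly sets their differences and spread.

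The genes in which OR-2100 stood farthest from DAC and OR-2003 were chosen for that difference. Of those with values given here, all but *ERC2-IT1* were dim, under -1 on every array. *ERC2-IT1*, transcribed from an intron of *ERC2*, read -0.36 on mock, -0.93 with DAC, -0.97 with OR-2003 and -0.05 with OR-2100. *IL6ST-DT* read -4.00 on mock, -3.20 with DAC, -4.16 with OR-2003 and -2.87 with OR-2100. In the other direction *CFAP65-AS1* read -2.00 on mock, -2.81 with DAC, -2.26 with OR-2003 and -3.76 with OR-2100. In *IL6ST-DT* the mock value lay between those of the drugs, and in *ERC2-IT1* it lay nearest to OR-2100. *ABCA15P*, *FAM30A* and *LINC00622* were the other 3.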

How the data were processed

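Total RNA was labelled with Cy3 by a kit that primes from poly(A), and hybridized to Agilent 8x60K version 3 arrays. The authors deposited, per array, scanner intensities from Feature Extraction 12.1.0.3, of which the processed signal (background-subtracted intensity) was used; the series table they deposited held the same values. Control spots and spots marked as outliers were left out, spots of a probe were averaged, and log2 intensities were set to 0 at each array's 75th percentile. The arrays hold no counts, so their number limits the precision. Accessions were named through a RefSeq table on GRCh38.p14. The array design is older, so no gene coordinates are given other than promoters. Y-linked and X-inactivation transcripts (43 genes) are not named. A further cell type marker is not reported here.

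With 1 array per condition no test was run. Genes were named by rule, with 1 probe per gene (highest mean level): the 10 highest and 10 lowest mean differences above background, the 10 highest with drugs among those not above background on mock, the 5 brightest, the 6 with OR-2100 farthest from the others, and the extremes of each list. Pairs, list members with a call and a few well-known members were added after their values were seen. The members and lists were chosen with earlier results of these data known. Normexp (limma 3.58.1, R 4.3.3, offset 50) used the median spot signal. Calculations used Python 3.11.15, numpy 2.4.6, pandas 2.3.3 and scipy 1.17.1 and were tested on simulated data. Alternatives covered the input table, background, scaling, filters, thresholds and the definition of like signal.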

Additional observations from a re-analysis of the deposited data

How the results depend on the processing

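No paired analysis was possible because there was 1 array for each condition, and for the same reason no array could be left out. Of 198 alternative values 4 turned the sign of a difference whose interval lay off 0, 75 others moved past the limit set for them (a factor of 1.5 for counts, the 95% interval for shares and medians) and 119 stayed within it. Counts follow the order DAC, OR-2003, OR-2100, then all 3 together, and the cause was not tested except where the setting itself moves the threshold. With normexp the reduced counts were 116, 106, 122 and 88. With the 75th percentile taken over well-measured probes, which lowers noncoding levels by 2.27 and so raises the threshold of -1, the induced counts were 106, 109, 110 and 96 and the reduced 46, 42, 50 and 38. With array medians set to 0, which raises levels by 3.52, they were 749, 738, 748 and 618 induced and 1064, 1067, 1251 and 657 reduced. A 4-fold threshold left 166, 170, 180 and 159 induced and 51, 42, 49 and 36 reduced. A level threshold of 0 left 157, 167, 164 and 147 induced and 145, 145, 153 and 115 reduced, and no level threshold gave 988, 1056, 920 and 754 induced and 1173, 997, 1589 and 633 reduced. Keeping only probes well above background on all 4 arrays left 157, 169, 165 and 143 induced. The induced share of noncoding minus coding probes, in percentage points, changed sign to -1.96 with medians set to 0, -0.196 with 1 probe per gene, -2.84 with no level threshold and -3.1 with like signal set by mock level, and was 1.08 with like signal set by the drugs. The reduced share difference became 0.332 with medians set to 0, -0.813 with probes above background on all arrays, -0.811 with 1 probe per gene, 0.096 at 4-fold, 0.428 with no level threshold, 0.388 by mock level and -0.692 by drug level. The noncoding minus coding median differences for DAC, OR-2003 and OR-2100, -0.0265, -0.0197 and -0.019, became -0.107, -0.0555 and -0.0692 with probes above background on all arrays, 0, 0 and 0 with dim values raised to the background limit, -0.0395, -0.0417 and -0.0358 with 1 probe per gene, -0.0827, -0.0934 and -0.0879 by mock level, and -0.0172, -0.00874 and -0.00686 by drug level. With normexp they were -0.0134 for DAC and -0.0239 for OR-2100, and with quantile normalization -0.0284 for OR-2003 and -0.0175 for OR-2100. Leaving out the SNORD113, SNORD114, SNAR and MEG9 probes was chosen after seeing the data. It lowered the induced share difference from 0.465 to 0.161, with an interval of -0.178 to 0.535 that spans 0. The reduced share difference, -0.331, was -0.0832 with the 75th percentile of well-measured probes, -0.163 with normexp and -0.166 with quantile normalization, all within its counting interval.

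Signals near background limit what can be said of most noncoding probes, since 3781 of 8168 were well above background on no array.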
